A study of Homo sapiens with 2 samples.

Results

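The aminoacyl-tRNA synthetase genes, 36 of the 19974 protein-coding genes that the RefSeq gene table (assembly GRCh38.p14) holds on chromosomes 1 to 22 and X, were taken from a list of gene symbols. Of these, 18 encode cytosolic enzymes or subunits, 2 (GARS1 and KARS1) encode enzymes that serve both compartments, and 16 encode mitochondrial enzymes. The measurements were ChIPmentation peaks from PANC-1, an established cell line of human pancreatic ductal adenocarcinoma. In ChIPmentation a transposase inserts the sequencing adapters while the chromatin is still held on the antibody beads. There were 2 samples, 1 treated with inflachromene, a compound that binds the proteins HMGB1 and HMGB2, and 1 with the solvent DMSO, both crosslinked with EGS and then formaldehyde. The sources used here do not name the antibody, its target, the dose or the length of treatment, so a peak is read only as a position where fragments were enriched. With 1 library per treatment no difference between treatments could be tested, and each one compares these 2 libraries, not the conditions.

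Aminoacyl-tRNA synthetases join each amino acid to its own tRNAs and thereby set the genetic code at every round of translation. The cytosol and the mitochondrion use largely separate sets of these enzymes, and all of the mitochondrial ones are encoded in the nucleus and imported. Many of the cytosolic genes are known targets of ATF4, the transcription factor through which cells respond to amino acid shortage. Several cytosolic enzymes are bound together in the multisynthetase complex.

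On the analysed chromosomes the inflachromene list held 10836 peaks and the DMSO list 15186. The height of each peak is given as its pileup, the number of fragments over the summit, which was recovered from the deposited values. The median pileup was 23 fragments in both lists and the weakest called peak had 7 in both. The number of sequenced fragments in the inflachromene library was inferred to be 0.964 times that in DMSO. Among 8 epithelial marker genes, KRT8 and KRT18, at 1 shared peak, and SOX9 were present in both libraries, KRT19 and MUC1 had one in DMSO alone, and KRT7, EPCAM and CDH1 had none. Among 12 markers of other cell types only CD14 was present in inflachromene, with 10 fragments, and none had one in DMSO. A peak is not an expression level, so these counts do not measure cell identity.

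Most synthetase genes carried a peak. A gene was counted where a summit lay within 1000 bp of either annotated end. In the inflachromene list 28 of 36 synthetase genes (77.8%, exact 95% interval 60.8 to 89.9) were counted, against 38.2% of all protein-coding genes. In the DMSO list 32 of 36 (88.9%, 73.9 to 96.9) were counted, against 45.8% of all genes. Peaks were found in both libraries at 28 of the 36 and in inflachromene alone at 0. KARS1, IARS2, MARS2 and VARS2 had one in DMSO alone, and FARSA, SARS1, AARS2 and FARS2 had none in either. Of 28 synthetase genes with an inflachromene peak, 0 lacked a DMSO peak, against 4.16% of all genes with an inflachromene peak. Of 32 with a DMSO peak, 4 (12.5%, 3.51 to 29.0) lacked an inflachromene peak, against 20.2% of all genes with a DMSO peak. Intervals here and below cover counting error only.

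The cytosolic and mitochondrial sets had nearly the same share of genes with a DMSO peak, 16 of 18 (88.9%) and 14 of 16 (87.5%). In the inflachromene list the counts were 16 of 18 cytosolic genes (88.9%, 65.3 to 98.6) and 11 of 16 mitochondrial genes (68.8%, 41.3 to 89.0). Thus 0 of 16 cytosolic genes with a DMSO peak (upper bound 20.6%) and 3 of 14 mitochondrial ones (21.4%, 4.66 to 50.8) had no inflachromene peak. These intervals overlap, but they are a description, and the difference between the sets was not tested. The DMSO peaks without an inflachromene partner had pileups between 18 and 34, and 19.0% of all 4177 genes whose strongest DMSO pileup lay in that range had no inflachromene peak. Within the same range the count was 0 of 8 cytosolic and 3 of 9 mitochondrial genes, with upper bounds of 36.9% and 70.1%. The range was set by the synthetase genes without an inflachromene peak. It therefore holds all of them and leaves out only synthetase genes that had one. These counts are thus no comparison at matched height.

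**Figure D1:**
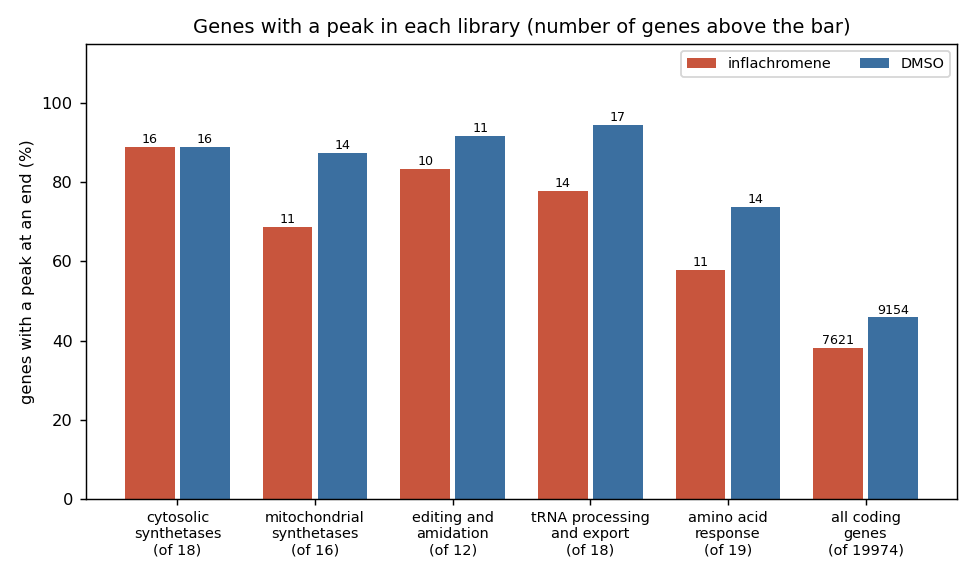
Share of genes (vertical axis, percent) with a peak within 1000 bp of an annotated end in the inflachromene and the DMSO library, for cytosolic and mitochondrial synthetases, 3 lists of related genes and all protein-coding genes. The number of genes stands above each bar, and cytosolic synthetases are the only plotted group with equal counts in both libraries, 16 and 16.

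The 4 genes with a peak in DMSO alone were of moderate height in that library. MARS2, which charges mitochondrial tRNA with methionine, had no inflachromene peak, against 34 fragments in DMSO (exact Poisson 95% interval 23.5 to 47.5) at chr2:197705148-197705455, a 13.6-fold enrichment over the local background with the summit 65 bp upstream of the start. IARS2, the mitochondrial isoleucyl enzyme, had no inflachromene peak, against 24 fragments in DMSO (15.4 to 35.7) at chr1:220093958-220094308, enriched 9.01-fold and 110 bp upstream. KARS1, the lysyl enzyme of both compartments and a part of the multisynthetase complex, had no inflachromene peak, against 22 fragments in DMSO (13.8 to 33.3) at chr16:75647635-75647858, enriched 10.8-fold and 68 bp upstream. The KARS1 peak also lay at an end of TERF2IP, a gene of the telomere-binding shelterin complex, so it cannot be credited to KARS1 alone. VARS2, the mitochondrial valyl enzyme, had no inflachromene peak, against 18 fragments in DMSO (10.7 to 28.4) at chr6:30914138-30914399, enriched 7.81-fold and 50 bp from an annotated end. That peak also lay at an end of GTF2H4, which encodes a subunit of the general transcription factor TFIIH.

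The nearest inflachromene summits to these genes lay kilobases away. The distance was 189403 bp from an end of MARS2, 110295 bp from KARS1, 47500 bp from IARS2 and 6176 bp from VARS2. The summit nearest to IARS2 was that of EPRS1, its neighbour on chromosome 1, which had a peak in both lists. A position with no called peak has no measured pileup, so no fold change can be given for these genes.

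The sequences before the starts of MARS2, IARS2 and KARS1 are shown because the DMSO summits without an inflachromene peak lay inside them. Each is the 250 bases before the RefSeq start, 5′ to 3′ on the gene's strand, from the RefSeq promoter table (GRCh38.p14), at chr2:197705119-197705368 (plus strand), chr1:220093882-220094131 (plus strand) and chr16:75647666-75647915 (minus strand). That table held 30 of the 36 genes and not VARS2. Capitals mark matches, on either strand, to any of 8 short motifs: TATAAA (the TATA box), ATTGG (the CCAAT box read on the other strand), GGGCGG (the GC box), CCGGAAG (the core bound by ETS factors), CACGTG (an E-box), GCGCATGC (the core bound by NRF1), AAGATGGC (the core bound by YY1) and TGATGNAA (the C/EBP-ATF response element, CARE, bound by ATF4).
MARS2: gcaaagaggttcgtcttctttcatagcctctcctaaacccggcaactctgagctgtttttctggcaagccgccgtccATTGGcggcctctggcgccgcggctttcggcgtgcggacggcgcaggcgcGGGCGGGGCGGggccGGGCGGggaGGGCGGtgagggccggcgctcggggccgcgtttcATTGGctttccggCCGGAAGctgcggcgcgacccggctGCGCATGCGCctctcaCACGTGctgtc
IARS2: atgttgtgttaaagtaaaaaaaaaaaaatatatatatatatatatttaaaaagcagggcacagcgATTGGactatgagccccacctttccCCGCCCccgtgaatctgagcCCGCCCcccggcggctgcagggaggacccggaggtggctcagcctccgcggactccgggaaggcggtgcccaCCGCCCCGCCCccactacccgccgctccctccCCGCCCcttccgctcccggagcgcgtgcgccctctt
KARS1: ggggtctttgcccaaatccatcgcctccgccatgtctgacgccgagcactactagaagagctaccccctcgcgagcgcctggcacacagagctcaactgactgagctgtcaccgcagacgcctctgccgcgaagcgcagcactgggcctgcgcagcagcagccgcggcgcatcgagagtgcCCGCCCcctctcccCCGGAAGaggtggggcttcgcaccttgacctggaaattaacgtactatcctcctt
The MARS2 sequence held 10 motif matches, among them 4 GC boxes, 2 CCAAT boxes and 2 overlapping NRF1 cores, while IARS2 held 6, of which 5 were GC boxes. KARS1 held 1 GC box and 1 ETS core, both close to its DMSO summit. A match describes the letters and is not a measured binding site.

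Among the cytosolic genes, VARS1 had the highest peak and kept it in both libraries. VARS1, the cytosolic valyl enzyme, had 79 fragments in inflachromene (62.5 to 98.5) at chr6:31795444-31796201, against 116 in DMSO (95.9 to 139). Its ratio of inflachromene to DMSO pileup was 0.681 (exact binomial 95% interval 0.505 to 0.914), an interval below 1 on counting error alone. That interval included 0.822, the median ratio of all genes. TARS1, the threonyl enzyme, had 60 fragments in both inflachromene and DMSO (45.8 to 77.2 each) at chr5:33440516-33441257 in the inflachromene list. It was the only synthetase gene with equal pileups, and both summits lay on the same base, 75 bp inside the gene. LARS1, the leucyl enzyme, had 48 fragments in inflachromene (35.4 to 63.6) at chr5:146182460-146182954, against 54 in DMSO (40.6 to 70.5). EPRS1, a fused enzyme that charges both glutamate and proline tRNAs, had 39 fragments in inflachromene (27.7 to 53.3) at chr1:220046420-220046750, against 40 in DMSO (28.6 to 54.5). LARS1 and EPRS1 differed between the libraries by far less than their counting intervals. WARS1, the tryptophanyl enzyme known to be induced by interferon, had 32 fragments in inflachromene (21.9 to 45.2) at chr14:100376190-100376539, against 44 in DMSO (32.0 to 59.1). The WARS1 peak also lay at an end of WDR25, and its intervals overlapped.

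The mitochondrial set was led by SARS2, the seryl enzyme, with a peak as high as that of VARS1. SARS2 had 101 fragments in inflachromene (82.3 to 123) at chr19:38930341-38931036, against 113 in DMSO (93.1 to 136), a ratio of 0.894 (0.677 to 1.18). The local background under the SARS2 summits, 6.12 fragments in inflachromene and 6.48 in DMSO, was well above the medians over all peaks of 2.09 and 2.01. The background at VARS1 was high as well, 4.51 in inflachromene and 5.97 in DMSO. The fold enrichments of SARS2, 14.3 and 15.2, were close to those of VARS1, 14.5 and 16.8. They were also close to those of EPRS1, 14.7 in both, whose pileups were far lower. The SARS2 peak also lay at an end of MRPS12, which encodes a protein of the mitochondrial ribosome's small subunit. EARS2, the mitochondrial glutamyl enzyme, had 36 fragments in inflachromene (25.2 to 49.8) at chr16:23557157-23557772, against 50 in DMSO (37.1 to 65.9), and shared the peak with UBFD1. PARS2, the mitochondrial prolyl enzyme, had 31 fragments in inflachromene (21.1 to 44.0) at chr1:54764476-54764886, against 43 in DMSO (31.1 to 57.9). RARS2, the mitochondrial arginyl enzyme, had 24 fragments in inflachromene (15.4 to 35.7) at chr6:87589966-87590352, against 33 in DMSO (22.7 to 46.3), and shared the peak with ORC3, an origin recognition complex gene. At EARS2, PARS2 and RARS2 alike the inflachromene value was the lower one and the intervals overlapped.

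The sequences before the starts of TARS1 (chr5:33440446-33440695, plus strand) and SARS2 (chr19:38930764-38931013, minus strand) are shown as those of the highest cytosolic and mitochondrial genes with an entry in the promoter table. Capitals mark the same 8 motifs.
TARS1: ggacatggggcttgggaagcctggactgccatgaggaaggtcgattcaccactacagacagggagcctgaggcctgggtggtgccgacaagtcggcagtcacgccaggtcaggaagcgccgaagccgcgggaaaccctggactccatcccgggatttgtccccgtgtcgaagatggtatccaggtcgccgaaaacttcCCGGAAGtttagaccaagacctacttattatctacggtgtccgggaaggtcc
SARS2: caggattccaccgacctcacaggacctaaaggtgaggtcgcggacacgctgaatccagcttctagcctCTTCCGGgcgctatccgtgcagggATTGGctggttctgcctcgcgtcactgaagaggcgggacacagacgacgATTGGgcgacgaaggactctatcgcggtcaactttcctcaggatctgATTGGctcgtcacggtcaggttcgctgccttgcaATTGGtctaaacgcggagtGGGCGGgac
TARS1 held 1 match, an ETS core. SARS2 held 6, with 4 CCAAT boxes, 1 GC box and 1 ETS core, and both of its summits lay within this stretch.

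**Figure D2:**
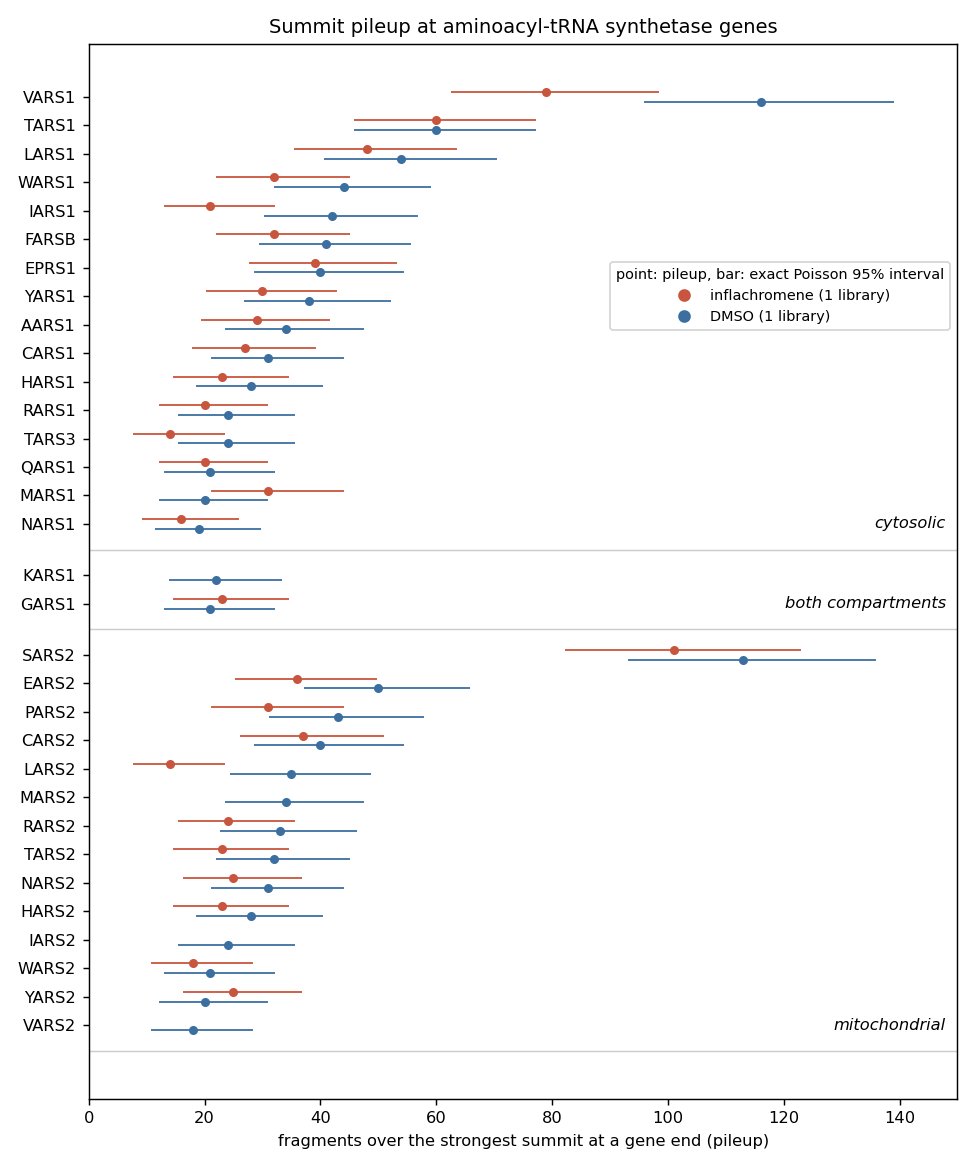
Pileup (horizontal axis, fragments over the strongest summit at a gene end) of each synthetase gene with a peak, in inflachromene and in DMSO, ordered within each set by the DMSO value. Bars are exact Poisson 95% intervals of 1 library each, and KARS1, MARS2, IARS2 and VARS2 have a DMSO point only.

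At the 28 genes with a peak in both lists, the inflachromene pileup was lower in 24 (85.7%), equal in 1 and higher in 3. Over all 7267 protein-coding genes with such a pair the share that was lower was 77.3%. The median ratio was 0.827 for the synthetase genes and 0.822 for all genes (quartiles 0.706 and 0.962), and 19 of the 28 lay between those quartiles. Summed over the 28 genes, the pairs held 901 fragments in inflachromene and 1103 in DMSO, a ratio of 0.817, with the peak that HARS1 and HARS2 share counted for each. The family's ratios thus lay where those of all genes lay. Divided by the inferred ratio of fragment numbers, the medians were 0.858 for the synthetase genes and 0.853 for all genes.

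The median ratio was 0.838 over 16 cytosolic genes (0.50 to 1.55) and 0.806 over 11 mitochondrial genes (0.40 to 1.25), and the difference was not tested. Among 10 amino acids with both ratios, the cytosolic gene had the higher one in 6, the mitochondrial gene in 3, and 1 was equal. These are not 10 separate comparisons. EPRS1 stood for both glutamate and proline and had the higher ratio in both. The equal pair was HARS1 and HARS2, which share 1 peak. The inflachromene value was lower at 14 of 16 cytosolic and 10 of 11 mitochondrial genes. Summed, the cytosolic pairs held 521 fragments in inflachromene and 636 in DMSO, and the mitochondrial pairs 357 in inflachromene and 446 in DMSO. The median DMSO pileup was 36 for cytosolic and 32.5 for mitochondrial genes, against 28 for all genes with a DMSO peak. That order was not stable, since it turned in 3 of 12 alternatives, among them fold enrichment, with medians of 12.4 for cytosolic and 12.8 for mitochondrial genes against 9.37 for all genes. Between enzymes for the same amino acid, the cytosolic gene had the higher DMSO pileup in 6 of 13 pairs, the mitochondrial gene in 6, and 1 was equal. The equal pair was again HARS1 and HARS2, and EPRS1 again stood for both glutamate and proline.

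Only 3 genes were lower by 1.5-fold or more in inflachromene (10.7%, against 18.8% of all genes) and 1 was higher by as much (3.57%, against 1.17%). LARS2, the mitochondrial leucyl enzyme, had 14 fragments in inflachromene (7.65 to 23.5) at chr3:45388412-45388596, against 35 in DMSO (24.4 to 48.7). Its ratio of 0.40 (0.199 to 0.763) was the lowest of the family by pileup and stood at percentile 0.151 of all genes. By fold enrichment its ratio was 0.58, over a background of 0.779 fragments in inflachromene and 1.48 in DMSO, and that of IARS1 was lower at 0.516. IARS1, the cytosolic isoleucyl enzyme and a part of the multisynthetase complex, had 21 fragments in inflachromene (13.0 to 32.1) at chr9:92293596-92293930, against 42 in DMSO (30.3 to 56.8). Its ratio was 0.50 (0.281 to 0.864), at percentile 2.22. The DMSO fold enrichment of IARS1, 18.3 against 9.43 in inflachromene, was the highest of any synthetase gene in that library. TARS3, a second cytosolic threonyl enzyme, had 14 fragments in inflachromene (7.65 to 23.5) at chr15:101724470-101724652, against 24 in DMSO (15.4 to 35.7), a ratio of 0.583 (0.279 to 1.17). The intervals of the ratio excluded 1 at LARS2, IARS1 and VARS1, all lower in inflachromene, and included it at TARS3. The median ratio of all genes, 0.822, lay inside the intervals of IARS1, VARS1 and TARS3 and above that of LARS2. Since these genes were picked by their ratios among 28, the intervals are a description and not a test.

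MARS1, the cytosolic methionyl enzyme, stood at the other end of the family. It had 31 fragments in inflachromene (21.1 to 44.0) at chr12:57487819-57488167, against 20 in DMSO (12.2 to 30.9), a ratio of 1.55 (0.856 to 2.87) at percentile 99.2. The interval included 1, and the peak also lay at an end of ARHGAP9. YARS2, the mitochondrial tyrosyl enzyme, had 25 fragments in inflachromene (16.2 to 36.9) at chr12:32755746-32756038, against 20 in DMSO (12.2 to 30.9), a ratio of 1.25 (0.667 to 2.37). GARS1, the glycyl enzyme of both compartments, had 23 fragments in inflachromene (14.6 to 34.5) at chr7:30594629-30594912, against 21 in DMSO (13.0 to 32.1), a ratio of 1.1 (0.58 to 2.08). The intervals of the ratio included 1 at YARS2 and at GARS1 as well. Of the methionyl pair, MARS1 had the higher value in inflachromene, with an interval that included 1, while MARS2 had no inflachromene peak. A difference between compartments was not tested.

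**Figure D3:**
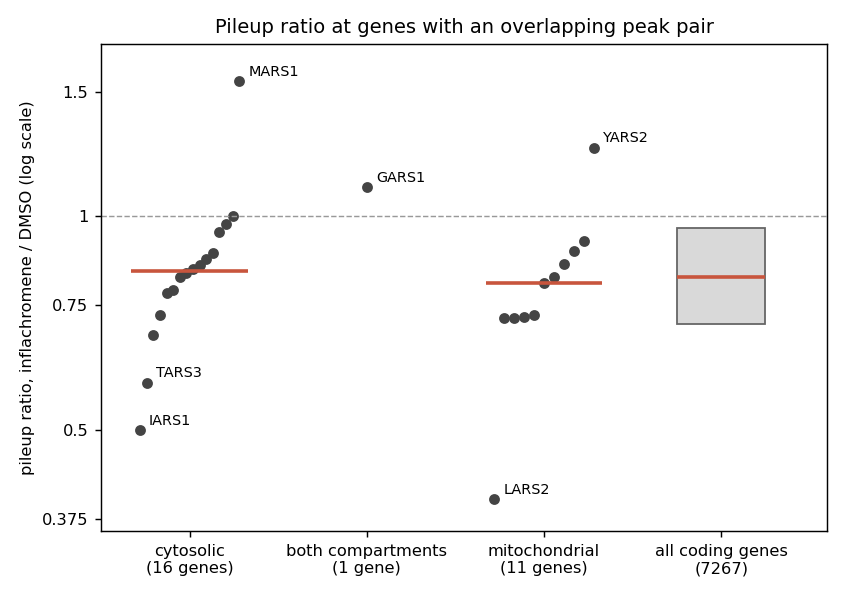
Ratio of inflachromene to DMSO pileup (vertical axis, log scale) at each synthetase gene with an overlapping peak pair, by compartment, with red lines at the medians. The box on the right spans the quartiles of all 7267 protein-coding genes with a pair, 0.706 to 0.962, and the named genes are those at or below 0.6 or above 1.

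The remaining genes with a peak in both lists are given by their range. Their inflachromene pileups ran between 16 at NARS1, the asparaginyl enzyme, and 37 at CARS2, the mitochondrial cysteinyl enzyme, and their DMSO pileups between 19 at NARS1 and 41 at FARSB, a subunit of the cytosolic phenylalanyl enzyme. The DMSO value of NARS1 was the lowest of the 28 genes with a pair. CARS2 had 37 fragments in inflachromene (26.1 to 51.0) at chr13:110712950-110713233, against 40 in DMSO (28.6 to 54.5). Its fold enrichment was the lowest of the family, 6.36 in inflachromene and 5.85 in DMSO, over a high local background of 4.98 and 6.01 fragments. AARS1, the alanyl enzyme, had a peak at both ends. Its start held 29 fragments in inflachromene and 34 in DMSO, and its 3′ end held 22 in inflachromene and 24 in DMSO. Each AARS1 peak was shared with a neighbour, DDX19B at the start and EXOSC6 at the 3′ end, so neither belongs to AARS1 alone.

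Some peaks at these genes were shared with another gene. Of the summits at synthetase ends, 10 of 28 in inflachromene and 12 of 32 in DMSO also lay within 1000 bp of an end of another protein-coding gene, 35.7% and 37.5%. Over all summits at gene ends the shares were 20.3% of 6610 in inflachromene and 19.4% of 8220 in DMSO. For 12 synthetase genes every DMSO peak was of this kind, and 20 had a DMSO peak at no other gene's end. HARS1 and HARS2, the cytosolic and mitochondrial histidyl enzymes, share 1 peak between them. They lie head to head on chromosome 5 with starts 85 bp apart. The peak held 23 fragments in inflachromene (14.6 to 34.5) at chr5:140691361-140691681, against 28 in DMSO (18.6 to 40.5) at chr5:140691259-140691628. The data therefore give 1 measurement for this cytosolic and mitochondrial pair and cannot part the genes.

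The sequences before both starts are shown because they overlap each other on opposite strands, HARS1 at chr5:140691371-140691620 (minus strand) and HARS2 at chr5:140691205-140691454 (plus strand). Capitals mark the same motifs.
HARS1: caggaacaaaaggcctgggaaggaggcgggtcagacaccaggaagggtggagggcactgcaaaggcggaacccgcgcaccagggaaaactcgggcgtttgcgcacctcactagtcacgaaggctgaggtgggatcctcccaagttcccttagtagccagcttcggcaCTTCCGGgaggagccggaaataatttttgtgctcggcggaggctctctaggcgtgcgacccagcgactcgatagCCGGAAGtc
HARS2: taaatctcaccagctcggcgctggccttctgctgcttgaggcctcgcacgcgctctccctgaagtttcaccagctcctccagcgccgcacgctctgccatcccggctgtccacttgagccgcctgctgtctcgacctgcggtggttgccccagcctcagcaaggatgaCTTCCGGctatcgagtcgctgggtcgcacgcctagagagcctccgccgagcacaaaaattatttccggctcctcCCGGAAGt
Each held 2 ETS cores and no other of the 8 motifs. In both cases the cores are the same 2 positions of the genome, read once on each strand.

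Where the table gave the strand, the summits clustered just upstream of the annotated start. With the summit shared by HARS1 and HARS2 counted for each gene, in inflachromene 24 summits were at a start and 1 at a 3′ end, and in DMSO 27 and 1, while 4 and 5 belonged to genes whose strand was not held. The median position relative to the start, negative upstream, was -63.5 bp in inflachromene and -70 bp in DMSO. Of those at starts, 21 of 24 in inflachromene and 23 of 27 in DMSO lay within 150 bp. Median widths were 326 bp in inflachromene and 371 bp in DMSO, against 308.5 and 305 bp over all peaks. Between the libraries the summits of 27 distinct pairs moved by a median of 29 bp, and 25 of the 27 by at most 100 bp. The exceptions were FARSB, at 296 bp, and CARS2, at 102 bp.

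**Figure D4:**
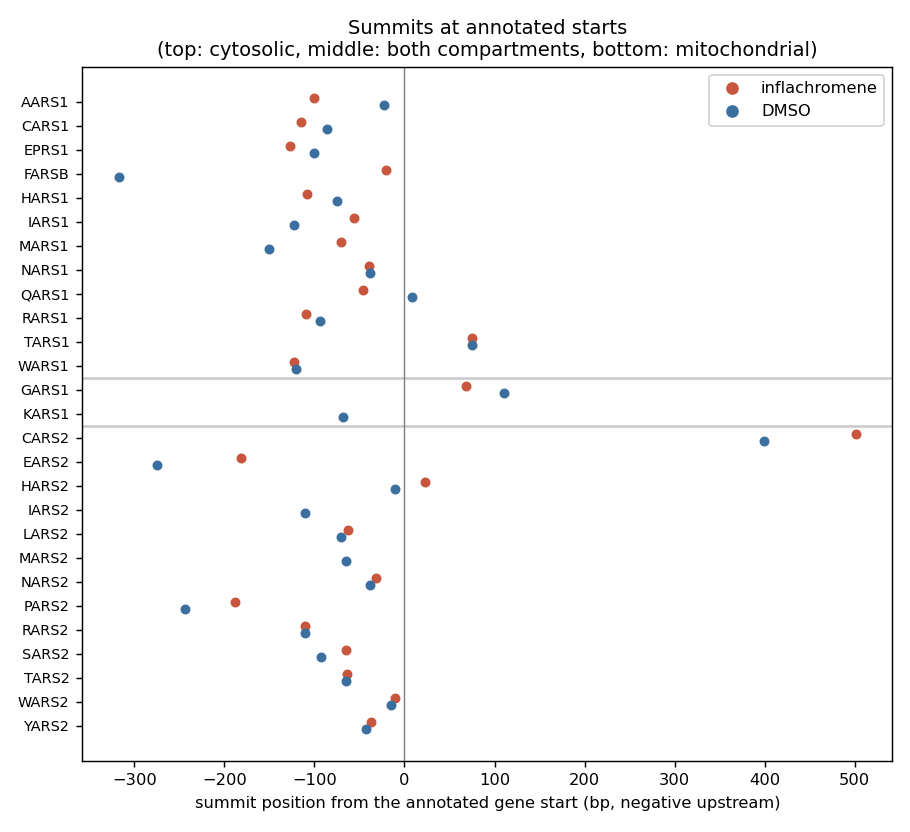
Position of each summit relative to the annotated gene start (horizontal axis, bp, negative upstream) in inflachromene and in DMSO, for synthetase genes whose strand was known. Most lie within 150 bp of the start, while the CARS2 summits lie 501 bp inside the gene in inflachromene and 399 bp in DMSO.

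The 1000 bp window had no borderline cases inside it. The summits farthest from an end were those of CARS2, 501 bp in inflachromene and 399 bp in DMSO, followed by AARS1 at 241 bp in inflachromene and FARSB at 317 bp in DMSO. Just outside the window, further summits lay 1716 bp from an end of QARS1 and 2063 bp from CARS2 in inflachromene. In DMSO they lay 1062 bp from an end of HARS2 and 1167 bp from TARS3. All of these genes were already counted through a nearer summit.

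The annotated ends missed 2 strong peaks at starts that the RefSeq promoter table lists inside the gene, which was seen only after the values were known. FARS2, the mitochondrial phenylalanyl enzyme, had no peak at an end, the nearest summit being 11407 bp away in inflachromene and 11401 bp in DMSO. At its listed starts it had 57 fragments in inflachromene (43.2 to 73.9) at chr6:5260457-5261665, against 91 in DMSO (73.3 to 112) at chr6:5260423-5261595. That is more than any mitochondrial gene but SARS2 had in either library, although the peak also lay at an end of LYRM4, a gene of mitochondrial iron-sulfur cluster assembly. CARS2 had a second peak at its listed starts with 42 fragments in inflachromene (30.3 to 56.8) and 45 in DMSO (32.8 to 60.2), while its peak at the annotated end was shared with the tumour suppressor gene ING1. By listed starts, 25 of 30 synthetase genes (83.3%) had an inflachromene peak, against 42.2% of 15813 genes with an entry. In DMSO 28 of 30 (93.3%) had one, against 50.3%. The 2 genes without a peak at any listed start were FARSA, the catalytic subunit of the cytosolic phenylalanyl enzyme, and SARS1, the cytosolic seryl enzyme. The nearest summit lay 3134 bp from an end of FARSA in both lists, and 45099 bp from SARS1 in inflachromene and 45049 bp in DMSO. AARS2, the mitochondrial alanyl enzyme, had no promoter entry, and its nearest summits lay 33061 bp away in inflachromene and 33107 bp in DMSO. A single further summit lay inside a synthetase gene, in DMSO alone, 7419 bp from the start of CARS1 with 16 fragments.

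The 8 motifs were searched on both strands of the 300 bases that end 50 bases after the start. Their shares among synthetase promoters are set beside those of all promoters and of the promoters with a DMSO peak, with no test. The ETS core CCGGAAG was present in 15 of 30 synthetase promoters (50%), against 14.1% of all 15813 and 22.5% of the 7706 with a DMSO peak. It was found in 7 of 14 cytosolic and 6 of 14 mitochondrial promoters, with the cores that HARS1 and HARS2 share counted in each set. The 30 promoters include those of FARSA, SARS1 and FARS2, which had no DMSO peak at an end. Of these, SARS1 held the ETS core. The YY1 core AAGATGGC was present in 20%, against 3.86% of all and 6.36% of those with a DMSO peak. The CCAAT box was present in 53.3%, against 36.4% and 40.3%. The GC box was present in 66.7%, above the 58.3% of all promoters but below the 74.2% of those with a DMSO peak. The E-box was present in 13.3%, against 8.82% and 10.8%. The NRF1 core was present only in MARS2 and YARS2 (6.67%), close to the 6.49% of promoters with a DMSO peak and against 4.27% of all. The TATA box was present only in GARS1 (3.33%), against 9.75% and 4.85%. Median GC content was 62.0% in the synthetase promoters and 62.7% in all.

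The CARE motif TGATGNAA was present in 6 of 30 synthetase promoters (20%), against 2.52% of all promoters and 1.27% of those with a DMSO peak. Of these 6, 5 were cytosolic (AARS1, CARS1, IARS1, MARS1 and NARS1, of 14) and 1 mitochondrial (YARS2, of 14). All 5 cytosolic holders were among the known ATF4 targets listed, and 5 of the 10 listed targets with a promoter entry held the motif. Most cytosolic synthetases are on that list, and the motif is the one that ATF4 binds, so this overlap is a description only. Their windows of 24 bases are shown because the motif's free position, N, differs among them. They are given in the direction in which the motif reads, with the motif in capitals. They lie at chr16:70289678-70289701 (plus strand), chr11:3057410-3057433 (plus), chr9:92293695-92293718 (plus), chr12:57488056-57488079 (minus), chr18:57621807-57621830 (minus) and, for YARS2, chr12:32756079-32756102 (minus), from the RefSeq promoter table.
AARS1: aacttggcTGATGCAActgcgaga
CARS1: ctagaatcTGATGCAAccgccgcc
IARS1: cacggaggTGATGCAAcgcgctga
MARS1: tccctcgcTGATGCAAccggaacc
NARS1: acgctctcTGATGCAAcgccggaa
YARS2: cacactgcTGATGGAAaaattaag
All 5 cytosolic windows held TGATGCAA, while the YARS2 window held TGATGGAA. With 1 mitochondrial window this shows no difference between compartments. The YARS2 match lay at -197 bases from the start and that of AARS1 at -187. Those of CARS1, IARS1, MARS1 and NARS1 lay at -2, -13, -4 and 14. Both MARS1 and YARS2, with the highest ratios of the family, and IARS1, with the lowest ratio of any cytosolic gene, are among the 6, so the motif did not go with 1 direction.

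Smaller sets were taken by role, beside 36.6% of all genes present in both libraries, 77.3% of all pairs lower in inflachromene and a median ratio of 0.822. Of the 13 synthetases listed as known ATF4 targets, 12 were present in both libraries and SARS1 in neither, with a lower inflachromene value at 9 of 12 (75%) and a median ratio of 0.862. In the multisynthetase complex, EPRS1, IARS1, LARS1, MARS1, QARS1 and RARS1 were present in both libraries and KARS1 in DMSO alone, with a median ratio of 0.921 over 6 genes. The 18 class I enzymes, which share a nucleotide-binding fold, had a DMSO peak in every case, against 45.8% of all genes. An inflachromene peak was present at 15 of them, against 38.2% of all genes, and their median ratio was 0.833. Of 17 class II enzymes, 12 were present in both libraries, 1 in DMSO alone and 4 in neither, with a median ratio of 0.821. Among those 4 is FARS2, which had a peak in both libraries at its listed starts. EPRS1, which holds one domain of each class, was left out of both.

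Genes that work with the synthetases were counted the same way, beside 36.6% of all genes in both libraries, 38.2% in inflachromene and 45.8% in DMSO. The 3 scaffold genes of the multisynthetase complex were present in both libraries, with a median ratio of 0.831. AIMP2 had 74 fragments in inflachromene and 89 in DMSO, and AIMP1 had 41 in inflachromene and 43 in DMSO. These peaks also lay at ends of PMS2 and TBCK. Of 12 genes for editing, amidation and release of charged tRNA, 10 (83.3%) were present in both libraries, MTFMT, the mitochondrial methionyl-tRNA formyltransferase, had one in DMSO alone with 21 fragments, and AARSD1 had none. Their median ratio was 0.75, with PTRH2, a peptidyl-tRNA hydrolase, at 39 fragments in inflachromene and 63 in DMSO at a peak shared with VMP1. DTD2, a D-aminoacyl-tRNA deacylase family gene that clears mischarged tRNA, had 24 fragments in inflachromene and 36 in DMSO. MTFMT acts on the tRNA that MARS2 charges, and neither gene had an inflachromene peak. The same held for 20.2% of all genes with a DMSO peak, and a link between MTFMT and MARS2 was not tested.

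Of 18 genes for tRNA processing and export, 14 (77.8%) were present in both libraries, with a median ratio of 0.793. XPO5, a nuclear export receptor, ELAC1, a tRNA 3′ processing enzyme, and RTCB, the tRNA ligase, had one in DMSO alone with 22, 9 and 11 fragments. TSEN34, a subunit of the tRNA splicing endonuclease, had 114 fragments in inflachromene and 140 in DMSO. OSGEP, which modifies tRNAs that read codons starting with A, had 88 fragments in inflachromene and 153 in DMSO, a ratio of 0.575. The TSEN34 peak also lay at an end of MBOAT7, the OSGEP peak at APEX1 and the XPO5 peak at POLH. Of 19 genes of the amino acid response, 11 (57.9%) were present in both libraries, 3 in DMSO alone and 5 (ATF3, ASNS, PHGDH, SHMT2 and SLC7A11) in neither. Those in DMSO alone were TRIB3, with 14 fragments, and the amino acid transporter genes SLC7A5, with 21, and SLC7A1, with 15. DDIT3, the stress transcription factor CHOP, had 59 fragments in inflachromene and 57 in DMSO, and PSPH, the last enzyme of serine synthesis, had 51 in inflachromene and 52 in DMSO. Both peaks also lay at ends of neighbours, MBD6 and CCT6A. The median ratio was 0.949 and the inflachromene value was lower at 7 of 11, against 77.3% of all genes, so this list sat closest to 1 of the 4.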

How the data were processed

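Each of the 2 samples, inflachromene and DMSO, had 1 deposited peak list (narrowPeak layout). The tools named, per the submitters' processing notes, were MACS2 and deepTools 3.5.6, and the build was hg38. Not given in the sources used here are the MACS2 version, aligner, duplicate handling, control library and pooling. The deposited fold enrichment is a ratio of pileup to local background at the summit, beside a −log10 p-value and −log10 q-value, the lowest of which was 3.01 in inflachromene and 3.02 in DMSO. The deposited integer score was not used.

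The files give no reads, so the depth is unknown. A whole-number pileup was recovered for every peak from the fold enrichment, read as (pileup + 1)/(background + 1), and the −log10 p, read as a Poisson tail, within a tolerance of 0.001. That reading is an inference from the values. The background's steps gave fragment lengths of 165.7 bp in inflachromene and 152.3 bp in DMSO and the ratio of fragment numbers, 0.964. Pileups are summit maxima, molecular identifiers are not mentioned in the labels, so fragments may not be independent molecules, and intervals cover counting error only.

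Peaks on chromosomes 1 to 22 and X were used. Symbols were matched to a RefSeq gene table (GRCh38.p14, the coordinates of hg38), and all 36 matched. A gene had a peak where a summit of a list, or of an overlapping peak (at least 1 bp) of the other list, lay within 1000 bp of an annotated end. The overlapping pair with the highest mean pileup stood for a gene. Strand and starts came from the RefSeq promoter table, which held 30 of the 36. Python 3.11.15, numpy 2.4.6, pandas 2.3.3, scipy 1.17.1 and matplotlib 3.10.9 were used, and the recovery and gene calls were tested on simulated data.

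With 1 sample per treatment no test was made. Pileups carry exact Poisson and ratios exact conditional binomial 95% intervals, and shares Clopper-Pearson intervals. Genes described singly were the 5 highest of each compartment by mean pileup, those in 1 list alone, the 3 lowest and 3 highest ratios, those sharing a peak with another synthetase and those nearest the window's edge. For related lists, the 2 highest genes and those in 1 list alone were named. FARS2, the second CARS2 and the CARS1 peak, FARSA, SARS1, AARS2, NARS1, FARSB and the CARE windows were singled out after their values were seen. The members and lists were chosen with earlier results of these data known. Alternatives covered window, gene assignment, threshold, list length, overlap, shared peaks, gene end, measure and scaling.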

Additional observations from a re-analysis of the deposited data

How the results depend on the processing

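Of 96 alternative values, 91 kept the direction and stayed close to the reported value, counts within 1.5 times. With peaks at ends of more than one gene left out, 18 members had an inflachromene peak, 20 a DMSO peak and 2, IARS2 and MARS2, one in DMSO alone. Such shared summits were more frequent at synthetase ends than at all gene ends, 35.7% against 20.3% in inflachromene and 37.5% against 19.4% in DMSO. The share of all genes was not computed under this rule. How much of the contrast with all genes remains without shared peaks is therefore not known. With fold enrichment in place of pileup, which changes the unit, the median DMSO value was 12.4 for cytosolic and 12.8 for mitochondrial genes. The cytosolic median pileup ratio was the higher one in 13 of 13 alternatives (0.838 to 0.869, against 0.743 to 0.837), while the order of the median DMSO values turned in 3 of 12: fold enrichment, starts alone, and every listed start, which was added after the data were seen. The alternatives recount the same 2 libraries. Several left both median ratios unchanged, and scaling divides both by the same number. Their agreement is therefore no test of the difference between the sets. The members' median ratio ran between 0.821 and 0.858. With each summit assigned to its nearest gene end, EARS2, IARS2, MARS2 and VARS2 were in DMSO alone and KARS1 in neither list. No paired analysis was possible because each treatment had 1 sample. The depth is unknown, and the lowest called pileup was 7 fragments in both libraries.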
